A study of Mus musculus with 6 samples.

Results

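The integrated stress response lowers general protein synthesis and at the same time raises the synthesis of a few stress factors. It begins when a kinase such as PERK (*Eif2ak3*), which senses unfolded proteins in the endoplasmic reticulum, or GCN2 (*Eif2ak4*), which senses uncharged tRNA when amino acids are scarce, phosphorylates the alpha subunit of the initiation factor eIF2. Translation of *Atf4* mRNA then increases, and the ATF4 protein activates genes of amino acid supply, stress adaptation and feedback. IMPACT binds GCN1, the activator of GCN2, and so restrains GCN2; in mice its gene is imprinted and expressed from the paternal allele.

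*Impact* and 9 genes of this response (*Eif2ak3*, *Eif2ak4*, *Atf4*, *Atf5*, *Ddit3*, *Trib3*, *Asns*, *Sesn2* and *Ppp1r15a*) were taken by symbol, 10 of the 24532 genes measured. *Impact* was included because it was much lower in the libraries of animals labelled *Sirt6* KO, and the study had already displayed it among the most decreased genes of these libraries. The other 9 were named for their place in the pathway, with results of the same contrast known. The levels and fold changes of the 10 genes between the groups are therefore given as a description, without p-values. All 10 passed the filter on low counts that left 13801 genes to test.

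The libraries were made from gastrocnemius (GAS) muscle of C57BL/6 mice, males of about 20 weeks of age, 1 library per animal. All 6 animals carried *Sirt6* flox/flox. The labels of the 3 WT animals name no Cre, and the 3 labelled *Sirt6* KO also carried *Myl1-Cre*, a Cre recombinase driven by the myosin light chain 1 promoter and active mainly in type II (fast) myofibers. Their libraries are called KO-labelled here. The study describes its WT mice as littermates, but the labels do not say which animals shared a litter. WT controls with *Myl1-Cre* alone were not analysed here. Muscle fiber genes were abundant in all 6 libraries, with *Myh4*, the fast IIb myosin heavy chain, at 53097 to 101492 normalized CPM (counts scaled to library size by the TMM method).

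The total count on genes was between 44845763 and 63016899 per library. *Sirt6* was at 2.23 to 2.88 CPM in WT and at 6.68 to 7.81 in the KO-labelled libraries, higher where the gene was said to be deleted. Its log2 fold change was 1.48 (standard error 0.17, edgeR adjusted p = 0.0113), and the groups did not overlap. Counts per gene do not show which exons were read, so each group is named by its label and each direction rests on the labels. WT library 3 stood apart in slow fiber genes. *Myh7*, the slow myosin heavy chain, was at 1138, 958 and 21.7 CPM in WT libraries 1 to 3 and at 100.1, 720.3 and 163 in KO-labelled libraries 1 to 3. Of 8 lists of cell type markers, the summed levels of 7 overlapped between the groups, which does not show that the cell make-up was alike. All 6 adipocyte markers had a log2 fold change above 0 (median 0.82), with 0 called. All 5 erythroid markers were below 0 (median -0.82), also with 0 called. The exception was the satellite cell list, at 19.8 to 27.1 summed CPM in WT and 34.7 to 46.8 in the KO-labelled libraries, where *Pax7*, *Myf5* and *Cdh15* rose by 1.28, 1.33 and 0.97 on the log2 scale (edgeR adjusted p = 0.0299, 0.0225 and 0.0243). The fourth marker of that list, *Vcam1*, had a log2 fold change of -0.26 and did not pass (edgeR adjusted p = 0.371), at 2.58 to 2.97 CPM in WT and 2.00 to 2.55 in the KO-labelled libraries. Of all genes tested, 7.85% were called higher, and the groups did not overlap in 40.0%. In bulk muscle, fewer cells of a type and less RNA per cell cannot be told apart.

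Short stretches of sequence at the starts of 3 member genes are shown because they hold the letters through which ATF4 and CREB are known to act. RefSeq promoter windows (GRCm38.p6, 250 bases before to 50 after a gene's start) matched 9 of the 10 members, with *Impact* not among them. Each window was searched on both strands for TGATGNAA, the core of the C/EBP-ATF response element, and for TGACGTCA, the palindromic cAMP response element. Of all 32851 windows, 3.97% held the former and 1.79% the latter. The former was found in *Asns* and *Trib3*, and the latter in *Ppp1r15a*. Sequences run 5′ to 3′ on the gene's strand with the match in capitals; the match in *Trib3* is on the opposite strand.
*Asns*, chr6:7693214-7693243, minus strand: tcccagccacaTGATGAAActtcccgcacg
*Trib3*, chr2:152344028-152344057, minus strand: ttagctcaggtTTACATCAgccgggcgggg
*Ppp1r15a*, chr7:45526262-45526291, minus strand: cgcctctccggTGACGTCAgcacagcgccg

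The match lay at -23 to -16 from the RefSeq start in *Asns*, at 15 to 22 after it in *Trib3*, and at -12 to -5 in *Ppp1r15a*. In GENCODE M21, all 30 bases of the *Asns* stretch lie in an exon of that gene, as do 7 bases of the *Ppp1r15a* stretch and 5 of the *Trib3* stretch. No match was found in these windows of *Eif2ak3*, *Eif2ak4*, *Atf4*, *Atf5*, *Ddit3* or *Sesn2*, which says only that the letters are not in that window.

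*Impact* (NCBI gene 16210, chromosome 18) showed by far the widest gap of the 10 genes. It was at 230.4, 309 and 123 normalized CPM in WT libraries 1, 2 and 3, and at 29.1, 26.8 and 31.6 in KO-labelled libraries 1, 2 and 3. Every KO-labelled library was far below every WT library, and WT library 3 was the lowest of its group. The mean was 221 ± 93.4 (SD, n = 3) in WT and 29.2 ± 2.40 (SD, n = 3) in the other group, 7.57-fold lower (log2 fold change -2.92, standard error 0.32). The spread was unequal too. The highest WT library exceeded the lowest 2.51-fold, whereas the KO-labelled libraries lay within 1.18-fold of each other. From the lowest log2 fold change upward, *Impact* was in place 45 of 13801.

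The low WT value of *Impact* was in the library with little *Myh7*. KO-labelled library 2, rich in *Myh7*, was at 26.8 CPM of *Impact*, against 29.1 and 31.6 in KO-labelled libraries 1 and 3, all within 1.18-fold. The part of the fiber type difference in the level of *Impact* was not tested. Without WT library 3, the log2 fold change was -3.21. It lay between -3.21 and -2.60 with each library left out in turn.

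Both kinases among the members were measured at low levels. Of the 2 other kinase genes of the pathway (chosen after their values were seen), *Eif2ak1* was at 47.5 to 64.8 CPM and *Eif2ak2* at 3.70 to 6.18. *Eif2ak3*, which encodes PERK, was at 4.79, 3.80 and 4.07 CPM in WT and at 4.70, 5.63 and 7.46 in the KO-labelled libraries. These values overlapped (log2 fold change 0.49, standard error 0.21). *Eif2ak4*, which encodes GCN2, the kinase that IMPACT restrains, was at 8.02, 8.08 and 6.68 in WT and at 9.43, 9.54 and 11.3 in the KO-labelled libraries. All 3 of the latter were above all 3 of the former, by a log2 fold change of 0.41 (standard error 0.14), which was not past the threshold of an adjusted p of 0.05 used for calls. The *Eif2ak3* values could include reads from a gene on the opposite strand, since GENCODE has 485 shared exonic bases there and whether the counting used the strand is not stated.

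Of the transcription factors, *Atf4*, the central activator, was at 251, 276 and 273 CPM in WT and at 141, 176 and 198 in the KO-labelled libraries. The groups did not overlap, and WT varied little (267 ± 13.6, SD, n = 3) against 172 ± 28.5 (SD, n = 3). The log2 fold change was -0.64 (standard error 0.15), or 1.55-fold lower. These are mRNA levels; ATF4 is controlled largely at translation, and neither its protein nor the phosphorylation of eIF2 was measured in these data.

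*Atf5*, a relative of *Atf4* that is translated under the same control, was at 54.6, 51.0 and 39.5 CPM in WT and at 27.5, 49.5 and 31.4 in the KO-labelled libraries. KO-labelled library 2 lay within the WT range, so that the groups overlapped (log2 fold change -0.42, standard error 0.23). *Ddit3*, which encodes the pro-apoptotic factor CHOP, was at 9.06, 10.9 and 4.75 in WT and at 5.28, 7.51 and 6.14 in the KO-labelled libraries. WT library 3 was the lowest of all 6 for *Ddit3*, and the groups overlapped (-0.39, standard error 0.30). Without that library the log2 fold change of *Ddit3* was -0.66, now past the threshold. Of all genes, 2219 were then called lower, against 1158 with all libraries. *Atf5* shares 82 exonic bases with *Nup62* and *Ddit3* shares 68 with *Mars*, both on the opposite strand.

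Among the targets, *Asns*, which encodes asparagine synthetase and whose element is printed above, was at 2.00, 2.59 and 1.57 CPM in WT and at 0.649, 0.874 and 0.962 in the KO-labelled libraries. The groups did not overlap, and the log2 fold change was -1.31 (standard error 0.29), 2.47-fold lower. *Trib3*, a pseudokinase that restrains ATF4 and CHOP, was at 1.04, 1.21 and 0.611 in WT and at 0.564, 0.676 and 0.654 in the KO-labelled libraries. Its values in WT library 3 and in the second group were alike and the groups overlapped (-0.59, standard error 0.35). The counts of *Trib3* were only 33 to 57 per library, and those of *Asns* 38 to 122.

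*Sesn2*, which encodes sestrin 2, a leucine sensor that limits mTORC1, stood on the other side. It was at 1.20, 0.870 and 1.68 CPM in WT and at 1.49, 2.33 and 2.65 in the KO-labelled libraries, a log2 fold change of 0.78 (standard error 0.34) with overlap. *Ppp1r15a*, whose product GADD34 directs a phosphatase to eIF2 and so ends the response, was at 82.6, 125 and 109 in WT and at 31.5, 45.8 and 44.9 in the KO-labelled libraries. The groups lay well apart, at 106 ± 21.6 against 40.7 ± 8.05 (SD, n = 3 each), and the log2 fold change was -1.38 (standard error 0.20), 2.59-fold lower. The log2 fold changes of *Ppp1r15a* and *Asns* were within their standard errors of each other, and without WT library 3 that of *Asns* was the larger (-1.47 against -1.35).

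**Figure D1:**
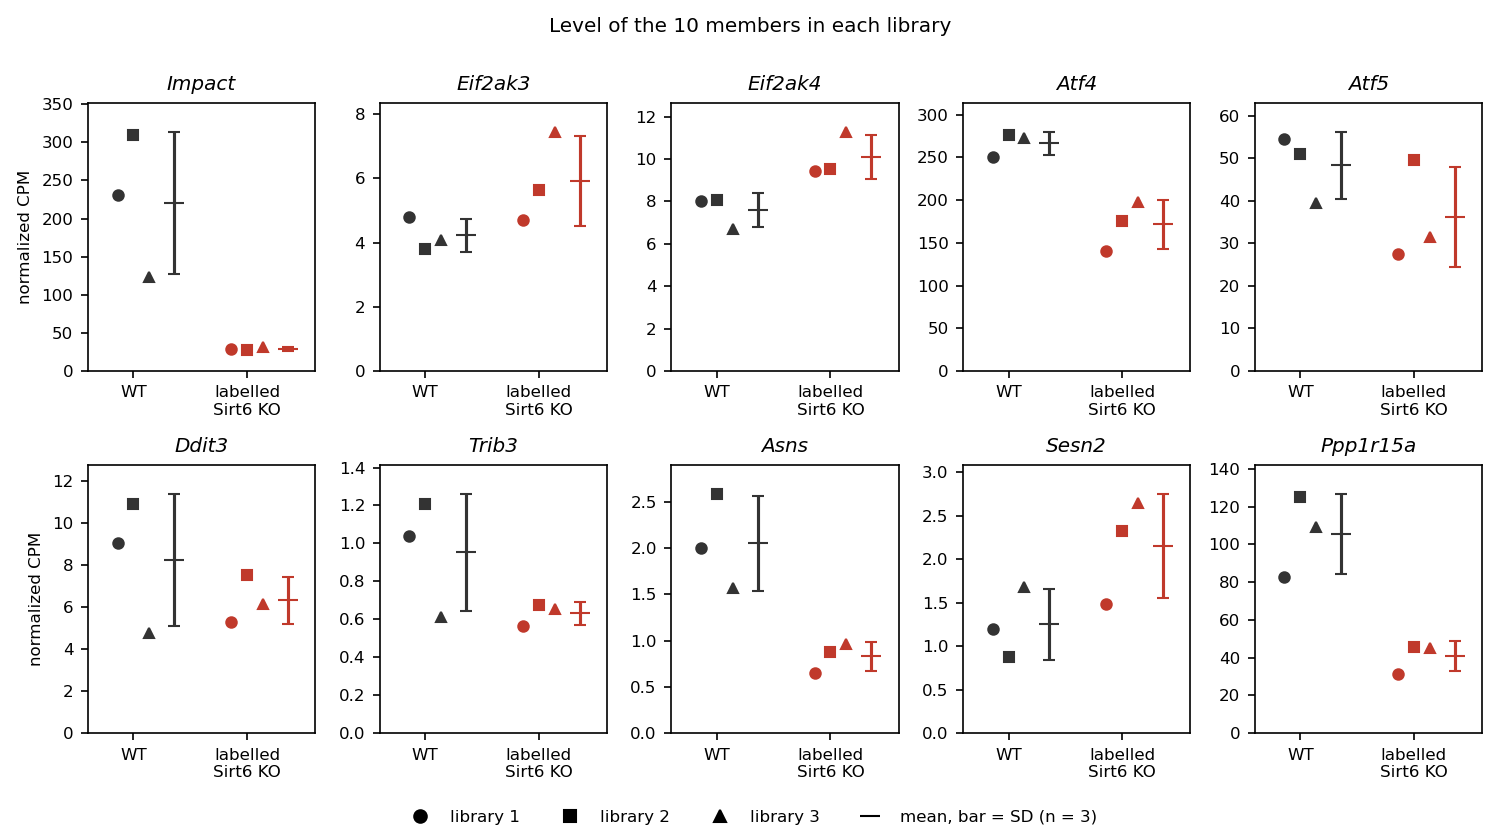
Normalized CPM (linear axis from 0) of the 10 genes in each of the 3 WT libraries and the 3 KO-labelled libraries; the symbol gives the library number, and the dash with its bar gives the mean and SD (n = 3). Impact, Atf4, Asns and Ppp1r15a were lower in every KO-labelled library than in every WT library, Eif2ak4 was higher in every one, and the other 5 genes overlapped.

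By edgeR's quasi-likelihood test over all 13801 genes, 4 of the 10 members (*Impact*, *Atf4*, *Asns* and *Ppp1r15a*) were past an adjusted p of 0.05 and lower in the KO-labelled libraries, and none was past it and higher. Of all genes, 8.39% were called lower, 7.85% higher, and 16.2% in either direction. The groups did not overlap in 5 of the 10 members, against 40.0% of all genes tested. With a change above 2-fold and an unadjusted p under 0.05, 3 members were lower and 0 higher, against 4.69% and 3.14% of all genes (7.83% in either direction). Since *Impact* was chosen on this contrast and the rest with its results known, nothing is read from these counts. Without KO-labelled library 1 or 3, 0 of the 10 were called, but few genes of any kind were. Of all genes, 6 were then called higher and 2 lower without library 1, and 8 and 5 without library 3, while the log2 fold change of *Impact* was -2.91 and -2.98. Without WT library 1, WT library 2 or KO-labelled library 2 there were 2 called, *Impact* and *Ppp1r15a*, and without WT library 3 there were 5. The fit without WT library 3 called 2363 of all genes higher and 2219 lower, against 1084 and 1158 with all libraries.

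The fold changes of all genes rose with the GC content of their transcripts (Spearman's rho 0.334, computed over 13715 genes that share libraries and depth and are no replicates of one another), and the members ran from 42.1% GC in *Impact* to 61.7% in *Atf5*. With the trend removed in each library, the log2 fold change was -2.67 for *Impact*, -0.85 for *Atf4*, -0.71 for *Atf5*, -1.26 for *Asns* and -1.59 for *Ppp1r15a*, with the same 4 genes called. Over all 16 alternatives, every member kept the sign of its difference, although *Trib3* and *Sesn2* could be fitted in 15 only.

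**Figure D2:**
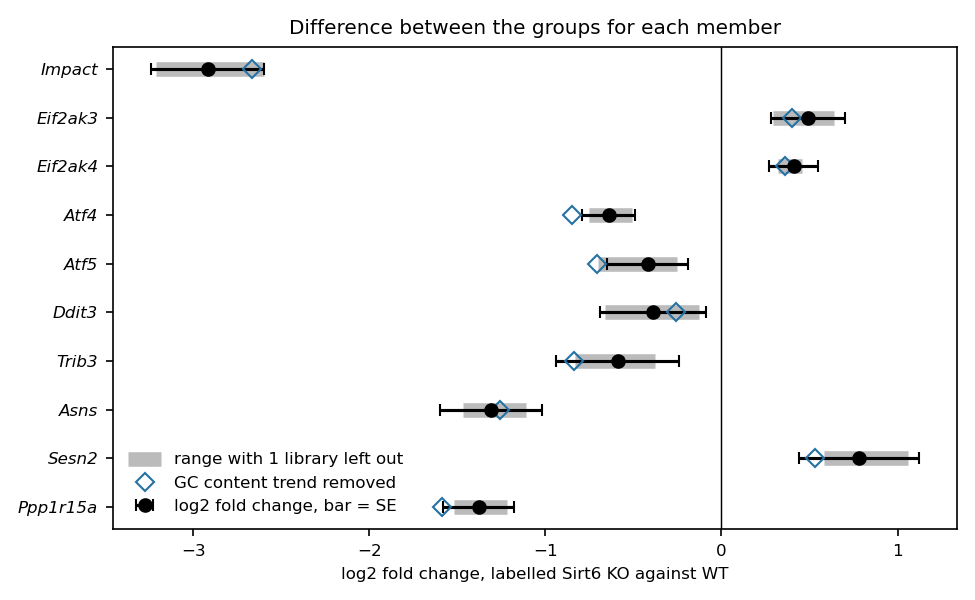
Log2 fold change of each member (x axis; KO-labelled libraries against WT, negative where lower in the former) with its standard error, the range over the 6 fits that left out 1 library (grey), and the value with the GC content trend removed (open diamond). The grey range stays on 1 side of 0 for all 10 genes, and it is widest for Impact, Ddit3 and Sesn2.

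Compared per length, in the TPM values that the authors deposited, the members spanned more than 2 orders of magnitude in WT. *Atf4* was the most abundant, at a mean of 338 ± 28.9 TPM (SD, n = 3), followed by *Impact* at 145 ± 68.5, *Ppp1r15a* at 98.9 ± 19.6, *Atf5* at 59.2 ± 15.5 and *Ddit3* at 21.3 ± 9.44. *Impact* and *Ppp1r15a* overlapped in this order, whereas *Atf4* lay above both in every WT library. Below them came *Eif2ak4* (3.22 TPM), *Eif2ak3* (2.45), *Asns* (2.35), *Trib3* (1.03) and *Sesn2* (1.01), where *Eif2ak4*, *Eif2ak3* and *Asns* overlapped with their neighbors, as did *Trib3* and *Sesn2*. *Eif2ak4*, apart between the groups in CPM, overlapped in TPM, at 2.47 to 3.69 in WT and 3.64 to 4.28 in the KO-labelled libraries. GCN2 mRNA was far scarcer than the mRNA of its inhibitor IMPACT in WT muscle.

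In the KO-labelled libraries, *Atf4* stayed first at 200.3 ± 27.8 TPM, and *Impact*, at 17.2 ± 1.43, moved to place 4, overlapping *Ddit3* at 14.6 ± 2.28. *Atf5* at 40.1 ± 12.3 and *Ppp1r15a* at 35.2 ± 6.02 overlapped each other. *Sesn2*, last in WT, was now above *Asns* and *Trib3* without overlap, at 1.62 ± 0.417 TPM against 0.856 ± 0.145 and 0.615 ± 0.0464.

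**Figure D3:**
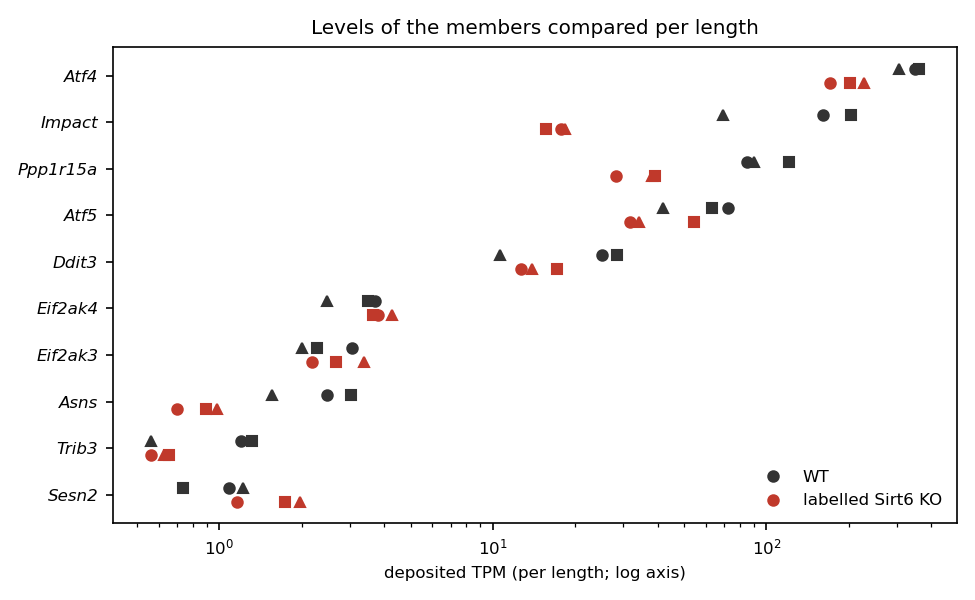
Deposited TPM (log axis) of the 10 members, ordered by their WT mean; each symbol is 1 library (circle, square and triangle for libraries 1, 2 and 3), with WT in dark grey above and the KO-labelled libraries in red below. Impact drops from between 69.3 and 203 TPM to between 15.6 and 18.3 TPM, while the 2 kinases stay between 2.01 and 4.28 TPM.

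Whether the mRNAs of other ATF4 target genes differed was asked with a list of 30 genes that holds none of the members. This list and those that follow were chosen with earlier results of these data known. Their counts and p-values are therefore no independent evidence. *Fgf21* had no count in any library, and *Gdf15*, *Slc7a11* and *Slc7a3* had at most 24, so that 26 genes were tested. By edgeR's quasi-likelihood test, 5 fell (*Atf3*, *Ddit4*, *Slc38a2*, *Cdkn1a* and *Cebpg*), 1 rose (*Aldh1l2*) and 20 did not pass. This is 23.1% called, against 16.2% of all genes, with a median log2 fold change of -0.19, against -0.02 over all genes tested. Of all genes, 8.39% were called lower and 7.85% higher. By sign alone, 16 of the 26 were lower and 10 higher.

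*Atf3*, a stress-induced repressor that is also a CREB target, was at 58.3, 44.4 and 16.3 CPM in WT and at 3.73, 7.11 and 2.83 in the KO-labelled libraries (log2 fold change -3.12, standard error 0.53, edgeR adjusted p = 0.0163). The study had displayed *Atf3* among the most decreased genes of these libraries, so its direction here is not independent evidence. *Ddit4*, an inhibitor of mTORC1 that also responds to glucocorticoids, was at 212, 340.2 and 295 in WT and at 39.5, 116 and 20.3 in the other group (-2.27, standard error 0.59, edgeR adjusted p = 0.0420). The groups lay apart for both genes, although the libraries of each group were far from alike. Over the alternatives, which include DESeq2 and limma, the adjusted p of *Ddit4* ranged from 0.0124 to 0.139. With the GC trend removed it missed the threshold (edgeR adjusted p = 0.0502) at a log2 fold change of -2.52.

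*Slc38a2*, the SNAT2 transporter of neutral amino acids, was at 537, 686 and 344 CPM in WT and at 139, 173 and 201 in the KO-labelled libraries (-1.61, standard error 0.27, edgeR adjusted p = 0.0157). WT library 3 was again the lowest of its group. *Cebpg*, a dimer partner of ATF4, was at 71.8, 76.5 and 71.5 against 39.9, 48.1 and 44.6 (-0.73, standard error 0.11, edgeR adjusted p = 0.0132), with little spread in either group. *Cdkn1a*, the cell cycle inhibitor p21 and also a p53 target, was at 46.8, 83.1 and 45.4 against 19.9, 32.6 and 22.7 (-1.22, standard error 0.28, edgeR adjusted p = 0.0315). *Aldh1l2*, a mitochondrial folate enzyme, was the gene that rose, from 9.78, 11.2 and 10.1 to 19.3, 15.3 and 16.0 (0.71, standard error 0.13, edgeR adjusted p = 0.0189).

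**Figure D4:**
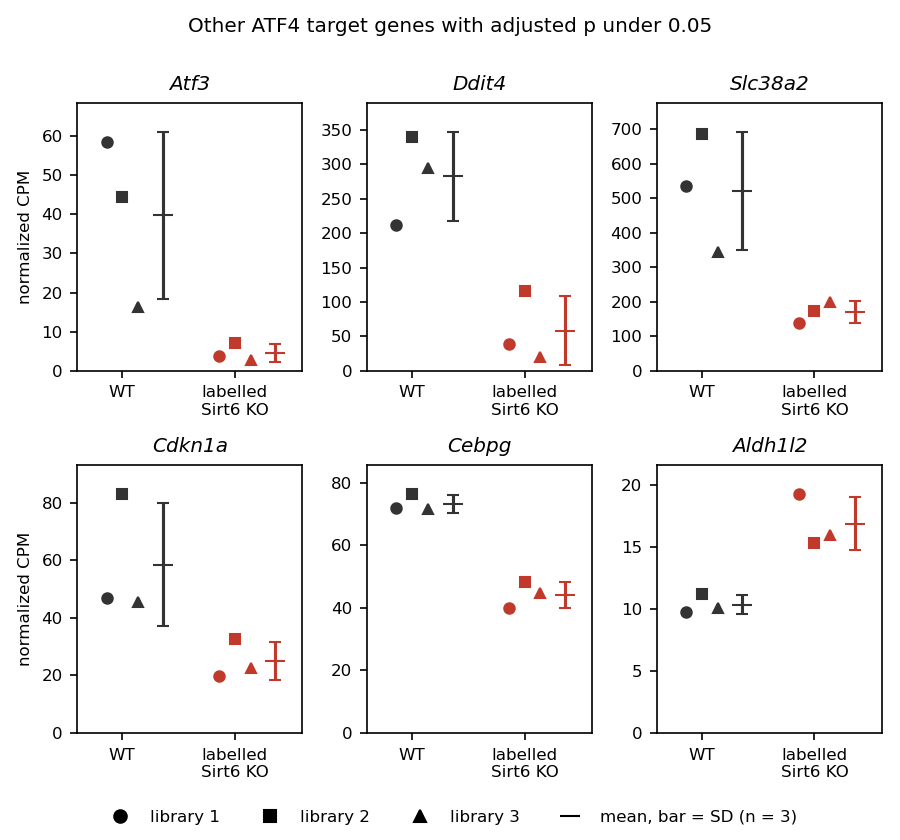
Normalized CPM (linear axis from 0) in each library of the 6 other ATF4 target genes with an edgeR adjusted p under 0.05, with mean and SD (n = 3) beside the points. In all 6 genes the 3 WT libraries lay apart from the 3 KO-labelled libraries, with Aldh1l2 higher in the latter and the other 5 lower. The 6 were picked by this same contrast, so nothing is read from their separation. Of the 26 genes tested in the list, 9 lay apart, against 40.0% of all genes tested.

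The 3 enzymes of serine synthesis, which are among the best-known ATF4 targets, did not pass (genes chosen after their values were seen). The log2 fold change was 0.69 (standard error 0.39) for *Phgdh* and 0.19 (standard error 0.27) for *Psat1*, both near 1 CPM, and -0.35 (standard error 0.21) for *Psph*, at 8.13 to 14.4 CPM. Nor did *Chac1*, a glutathione-degrading enzyme downstream of ATF4 and CHOP (0.43, standard error 0.29; also chosen after its values were seen), which was at 62.9 to 102 CPM in WT and 86.2 to 167 in the KO-labelled libraries. Each of the 6 called genes passed in 2 or 3 of the 6 fits that left out 1 library. The count of those that fell was 7 without WT library 3, and 0 without WT library 2 and without each of KO-labelled libraries 1 and 3. Of all genes, 2219 were called lower without WT library 3 and 153 without WT library 2. Without KO-labelled libraries 1 and 3 these were 2 and 5. The summed level of the satellite cell markers moved with the same groups, as given above, and its part was not tested.

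Of 15 other genes of the eIF2 pathway, 2 fell, 1 rose and 12 did not pass, 20% called against 16.2% of all genes (8.39% lower and 7.85% higher). *Ppp1r15b*, which encodes CReP, the constitutive counterpart of GADD34, was at 34.7, 39.3 and 39.2 CPM in WT and at 20.5, 24.4 and 23.9 in the KO-labelled libraries (log2 fold change -0.72, standard error 0.11, edgeR adjusted p = 0.0144). Both genes for the subunit that directs the phosphatase to eIF2, *Ppp1r15a* and *Ppp1r15b*, were lower without overlap. So were 19.6% of all genes tested. *Eif2s1*, which encodes eIF2 alpha itself, was at 50.4, 55.7 and 55.0 against 40.3, 39.3 and 37.5 (-0.46, standard error 0.09, edgeR adjusted p = 0.0234).

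*Gcn1l1*, the older symbol for GCN1, which both GCN2 and IMPACT bind, was at 51.6, 53.9 and 60.0 CPM in WT and at 72.2, 71.3 and 80.1 in the KO-labelled libraries (0.43, standard error 0.11, edgeR adjusted p = 0.0366). With the GC trend removed, *Gcn1l1* (log2 fold change 0.18) and *Eif2s1* (-0.16) were no longer called, whereas *Ppp1r15b* was (-0.72). None of the 3 genes passed without KO-labelled library 1 or 3 or without WT library 2.

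The cytosolic aminoacyl-tRNA synthetases, which charge tRNAs and many of which are ATF4 targets, gave 0 calls among 20 genes with edgeR, with 5 at an unadjusted p under 0.05 and 3 called by DESeq2. Of all 13801 genes, 16.2% were called and 4875 had an unadjusted p under 0.05. Their log2 fold changes ran only from -0.38 to 0.46, with a median of 0.20. The 3 most abundant were *Eprs*, at 264 ± 21.0 CPM in WT and 215 ± 36.6 in the KO-labelled libraries (-0.30, standard error 0.15), *Nars* (160.1 ± 23.0 against 138 ± 9.90, -0.21, standard error 0.14) and *Aars* (123 ± 13.2 against 141 ± 16.9, 0.19, standard error 0.14). All 3 overlapped. Without WT library 3, 7 of the 20 passed and were higher and 1 was lower. That fit called more genes of every kind, 2363 higher and 2219 lower, against 1084 and 1158 with all libraries.

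In the other branches of the endoplasmic reticulum stress response, 4 of 17 genes fell and 0 rose, a share of 23.5% with a median of -0.26. Of all genes, 16.2% were called and 8.39% were called lower, with a median of -0.02. *Ern1*, the IRE1 sensor, was at 17.2, 22.1 and 10.2 CPM in WT and at 5.79, 7.28 and 7.24 in the KO-labelled libraries (log2 fold change -1.28, standard error 0.27, edgeR adjusted p = 0.0249). *Edem1*, which acts in the disposal of misfolded glycoproteins, was at 17.2, 14.8 and 12.0 against 6.00, 6.30 and 7.97 (-1.12, standard error 0.18, edgeR adjusted p = 0.0153). *Pdia3* and *Dnajb9*, a disulfide isomerase and a cochaperone of BiP, fell by 0.92 and 0.90 on the log2 scale (standard errors 0.20 and 0.21, edgeR adjusted p = 0.0272 and 0.0321), the latter no longer called with the GC trend removed. *Hspa5*, which encodes BiP, the main chaperone of this compartment (chosen after its values were seen), overlapped widely, at 318 ± 100.1 against 266 ± 97.4 CPM (-0.26, standard error 0.33). The count was 0 without KO-labelled library 1 or 3, and 0 without WT library 1 or 2.

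**Figure D5:**
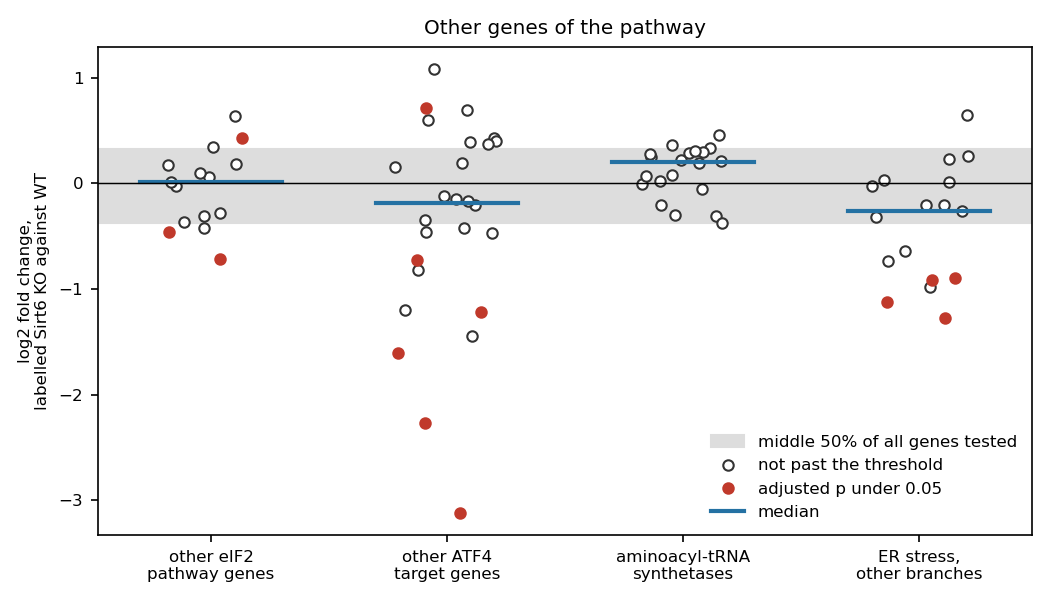
Log2 fold change (y axis; KO-labelled libraries against WT) of every tested gene in 4 lists of pathway genes; filled red circles had an edgeR adjusted p under 0.05, the blue line is the list's median, and the grey band is the middle 50% of all 13801 genes tested (-0.38 to 0.32). The synthetases cluster within or close to the band with none called, while called genes in the ATF4 target list reach -3.12.

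Among all genes tested, those whose log2 levels followed *Impact* most closely over the 6 libraries were *Ak3*, *Chd1*, *Map3k2*, *Rap2a* and *Sfpq* (Pearson's r 0.998, 0.998, 0.997, 0.997 and 0.996). The nearest inverse patterns were those of *Haghl*, *Rab1b* and *Naa40* (-0.997 each). The values share their libraries, and the gap between the groups sets most of each r. *Map3k2*, a kinase upstream of ERK5, was at 28.3, 33.2 and 20.4 CPM in WT and at 11.2, 11.5 and 11.3 in the KO-labelled libraries. It had the order of the WT libraries that *Impact* had and a tight second group, as did *Ak3*, *Chd1*, *Rap2a* and *Sfpq*. Within the KO-labelled libraries, *Map3k2* was highest in library 2, where *Impact* was lowest. Of the members, *Asns* followed *Impact* most closely (r 0.98), then *Ppp1r15a* (0.91), *Atf4* (0.88), *Trib3* (0.83), *Atf5* (0.66) and *Ddit3* (0.59), while *Eif2ak3* (-0.69), *Eif2ak4* (-0.72) and *Sesn2* (-0.82) ran opposite, all over 6 libraries and with no test.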

How the data were processed

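RNA-seq libraries of GAS muscle of 6 mice, 3 WT and 3 labelled *Sirt6* KO, were analysed and grouped by sample title. The authors sequenced poly-A RNA with paired-end reads and deposited whole-number read counts per gene from StringTie on mm10. The submitters' processing notes name HISAT2 2.1.0, Bowtie2 2.3.4.1 and StringTie 2.1.3b, while the reporting summary names another aligner. The authors also deposited FPKM (scaled to gene length and library size). They deposited TPM, scaled to a fixed sum in each library, as well; the authors' TPM served to order genes by level. The labels name a stranded kit and the methods another kit, and whether counting used strand is not given in the sources used here.

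Counts were filtered (filterByExpr, 13801 of 24532 genes), TMM-normalized and tested in R 4.3.3 with edgeR 4.0.16 (quasi-likelihood test, group as factor, Benjamini-Hochberg at 0.05). CPM are counts scaled to the TMM library size, and 1 count was worth 0.0165 to 0.0212 CPM. Standard errors were derived from the test statistic. Correlations used log2(CPM + 0.5). The code was tested on simulated counts. The common biological coefficient of variation was 24.1%. The study describes log2(FPKM + 1) values, a rule of 2-fold change with a p-value, and a DESeq2 Wald test. These were tried as alternatives, with limma 3.58.1 after quantile normalization of log2(FPKM + 1), and with DESeq2 1.42.0. The 2-fold rule was applied to the p-values of edgeR, not of DESeq2. Further alternatives were DESeq2's size factors, other filters, a pseudocount of 0.1 in limma, leaving out each library, and a block for replicate number. A GC correction (GENCODE M21, lowess span 0.3) was added after seeing the data. Each library came from 1 animal.

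The members, gene lists and marker lists were chosen with earlier results of these data known. Genes named were the members, *Sirt6*, in each list those called (or the 3 most abundant where fewer than 3 were), and the 5 most and 3 least correlated with *Impact*; others are said to be chosen after their values were seen. *Gcn1l1* and the gene now called *Dele1* were matched through their older symbols. The result of 1 marker gene is not reported here.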

Additional observations from a re-analysis of the deposited data

How the results depend on the processing

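With edgeR, 1084 genes were higher and 1158 lower in KO-labelled libraries (adjusted p under 0.05). These were 1730 and 1801 with DESeq2, 463 and 498 with the GC trend removed, and 249 and 336 with the replicate number as a block too. With a change above 2-fold and an unadjusted edgeR p under 0.05 they were 434 and 647. With 1 library left out they lay between 6 and 2363 and between 2 and 2219. Of the members, 4 were lower with edgeR and between 0 and 5 with 1 library left out, and 1 was higher with limma on log2(FPKM + 1) (*Eif2ak4*). The log2 fold change of *Impact* lay between -3.21 and -2.60 with 1 library left out, and was -2.58 with the GC trend removed and the replicate block. Of the other ATF4 targets, between 0 and 4 were higher and between 0 and 7 lower with 1 library left out, and 0 were higher with the GC trend and the replicate block together. The eIF2 pathway calls, 3 with edgeR, were 5 with DESeq2, with limma on log2(FPKM + 1) and with FPKM above 1 in at least 1 library, 1 with the GC trend removed (also with the block), and 0 to 5 with 1 library left out. The synthetase calls, 0 with edgeR, were 3 with DESeq2, 1 with DESeq2's size factors, 1 with at least 10 counts in every library, 4 with limma on log2(FPKM + 1), 3 with FPKM above 1, and 0 to 8 with 1 library left out. The endoplasmic reticulum calls, 4 with edgeR, were 0 with the GC trend and the block, and 0 to 6 with 1 library left out. Of the 5 genes most like *Impact*, 2 were among the 100 highest by Spearman correlation and 3 on log2(FPKM + 1). The cause of these shifts was not tested. None of the 10 members, and none of the called genes named from the 4 pathway lists, changed direction under the alternatives; *Sirt6* and the cell type markers were not followed under them. *Trib3* and *Sesn2* had no FPKM above 1 and so no value under that filter. Depth limits *Trib3*, *Asns* and *Sesn2* most, with counts of 33 to 146 per library.

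With the replicate number as a block, 904 genes were higher and 1018 lower, and 3 members were lower (*Asns* was lost), also with the GC trend removed. Deviations of same-numbered libraries correlated at -0.106, 0.26 and 0.161, and WT library 1 correlated best with KO-labelled library 2 (0.209), so the numbers were not taken to pair the animals.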
